A study of Saccharomyces cerevisiae with 25 samples.

Results

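The 9 genes described here encode the subunits of translation initiation factor eIF3 and the factors eIF1, eIF1A and eIF5B of budding yeast, among 6696 ORFs counted in each library. They were chosen by ORF identifier, and no measured value entered the rule, though earlier results of these data were known. All 9 had enough counts to be tested in every comparison. RPG1 (YBR079C), NIP1 (YMR309C), PRT1 (YOR361C), TIF34 (YMR146C) and TIF35 (YDR429C) encode eIF3a, eIF3c, eIF3b, eIF3i and eIF3g, the core of the complex. HCR1 (YLR192C) encodes eIF3j, SUI1 (YNL244C) eIF1, TIF11 (YMR260C) eIF1A and FUN12 (YAL035W) eIF5B. In the RefSeq annotation of assembly R64, TIF34 lies on chromosome XIII at 557481 to 558524, TIF11 on XIII at 789378 to 789839 and NIP1 on XIII at 892988 to 895426. RPG1 lies on chromosome II at 395383 to 398277, PRT1 on XV at 1015361 to 1017652, TIF35 on IV at 1324477 to 1325301 and HCR1 on XII at 538792 to 539589. SUI1 lies on XIV at 187170 to 187496 and FUN12 on I at 76427 to 79435. The coordinates span each gene as annotated, and none of the 9 overlaps another annotated gene.

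Translation initiation begins when the small ribosomal subunit is loaded with initiator tRNA and initiation factors, binds an mRNA and scans for a start codon. eIF3 is the large scaffold of this step, in which RPG1, NIP1 and PRT1 hold the complex together, TIF34 and TIF35 bind to PRT1, and the loosely attached HCR1 protein helps eIF3 to bind the small subunit and has also been linked to termination in yeast. SUI1 and TIF11 proteins bind next to the decoding site and set the accuracy of start codon selection, and FUN12 is the GTPase that joins the large subunit at the end. Genes of the translation machinery are known to be expressed together in yeast and to be turned down under many stresses.

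Saccharomyces cerevisiae cells of 3 strains were examined by RNA-seq and by ribosome profiling, which sequences the mRNA fragments (footprints) covered by ribosomes. W303, a wild-type laboratory strain, was harvested 0, 1, 2 and 4 h after addition of 1 µg/mL tunicamycin (Tm), which blocks N-glycosylation of proteins and causes ER stress. The eS7A-4KR and eS7A-WT strains were harvested at 4 h and at 0 h of the same treatment. Both are MATa with the marker alleles ade2, his3, leu2, trp1, ura3 and can1. In both, the chromosomal genes for ribosomal protein eS7 are replaced (RPS7a::HisMX6 and RPS7b::natNT2), and eS7A with a 3HA tag is supplied under its own promoter from the CEN plasmid pRS315. In eS7A-4KR the lysines of eS7A that the E3 ligase Not4 ubiquitinates are replaced by arginine. There were 25 libraries. Each assay had 2 libraries of untreated W303 and a single library for each treated time. The eS7A strains had 2 libraries for each time and assay, except that untreated eS7A-WT had a single RNA-seq library, and a second one was not analysed here. The study calls its replicates independent biological replicates, and the labels give only their numbers. Groups with a single library add nothing to the spread on which the p-values rest.

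Library totals ranged from 3423907 to 33858553 counted footprints and from 28309641 to 49246452 counted RNA-seq reads. The lowest count of any of the 9 genes was 200 footprints, for TIF11 in W303 at 4 h. RPS7B reads were 0.248% to 0.435% of RPS7A reads in RNA-seq of the eS7A strains and 17.9% to 26.8% in W303. In footprints they were 6.78% to 12.6% in the eS7A strains and 33.9% to 50.5% in W303, so footprints were counted on RPS7B in strains where the gene is replaced, and the source of these counts was not tested. This check cannot tell eS7A-4KR from eS7A-WT. The mRNAs of all 8 listed targets of the unfolded protein response rose in every treated condition. That list was chosen with earlier results of these data known. Levels are given as RPKM, counts per kilobase of counted codons scaled to library size with TMM, so they can be compared between genes. The footprint length range kept by the authors differed between the eS7A strains and, in eS7A-WT, between times, and its effect cannot be told apart from that of strain and time.

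In untreated W303 cells, SUI1 and TIF11 had the highest mRNA levels of the 9 genes. SUI1 was at 700 and 715 RPKM and TIF11 at 701 and 625 RPKM in the 2 RNA-seq libraries, above every other member in both. TIF35 followed at 312 ± 13.2 RPKM (SD, n = 2) and TIF34 at 279 and 296 RPKM, and neither this pair nor SUI1 and TIF11 were ordered alike in every library of both assays. RPG1, at 263 and 242 RPKM, overlapped with NIP1, at 252 and 243 RPKM. PRT1 was at 231 and 223 RPKM, HCR1 was at 210 and 222 RPKM and FUN12 was lowest at 207 and 179 RPKM. Footprint levels placed FUN12 lowest, at 173 and 167 RPKM, and SUI1 highest, at 737 and 795 RPKM. RPG1, NIP1 and PRT1, the 3 large scaffold subunits, were close to each other in ribosome occupancy. The highest of the 3 was 1.07 times the lowest in 1 untreated W303 footprint library and 1.04 times in the other.

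The ratio of footprint RPKM to mRNA RPKM gives the translation efficiency (TE) of a gene relative to other genes of the same strain and time. In W303 at 0 h it was lowest for TIF11, at 0.860, with a range of 0.812 to 0.913 over the 4 combinations of single libraries. FUN12 was next at 0.878 and its range overlapped that of TIF11. TIF34 had the highest ratio, at 1.36 (1.30 to 1.42 over the 4 combinations), and its range overlapped those of TIF35 (1.08 to 1.43), PRT1 (1.25 to 1.32) and HCR1 (1.23 to 1.31). TIF11 also had the lowest ratio of the 9 genes at 0 h in eS7A-4KR, at 0.992, and in eS7A-WT, at 0.848.

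The mRNAs of the core eIF3 subunits, eIF1, eIF1A and eIF5B fell in W303 after Tm was added, in a course that deepened at each time. No strain had an untreated culture sampled at a later time, so Tm and time in culture cannot be told apart. The mRNA level of RPG1, the largest subunit, was 263 and 242 RPKM before Tm, 145 RPKM after 1 h, 52.4 RPKM after 2 h and 31.0 RPKM after 4 h. NIP1 was at 252 and 243 RPKM before Tm, 168 RPKM after 1 h, 63.9 RPKM after 2 h and 37.4 RPKM after 4 h. PRT1 was at 231 and 223 RPKM, then 158, 75.7 and 53.8 RPKM at the same times. Each later library of these genes lay below every earlier one. The number of the 9 genes whose mRNA fell, in the quasi-likelihood test of edgeR at a Benjamini-Hochberg adjusted p below 0.01, was 5 after 1 h and 8 after both 2 h and 4 h. Of all 5392 genes tested, 18.5% fell by 1 h, 33.8% by 2 h and 36% by 4 h. The median log2 mRNA change of the 9 genes was −0.49 after 1 h, −1.58 after 2 h and −2.21 after 4 h, and that of all genes tested was 0.04 at 4 h. The treated times have single libraries, so the spread in these tests comes from the untreated replicates.

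**Figure D1:**
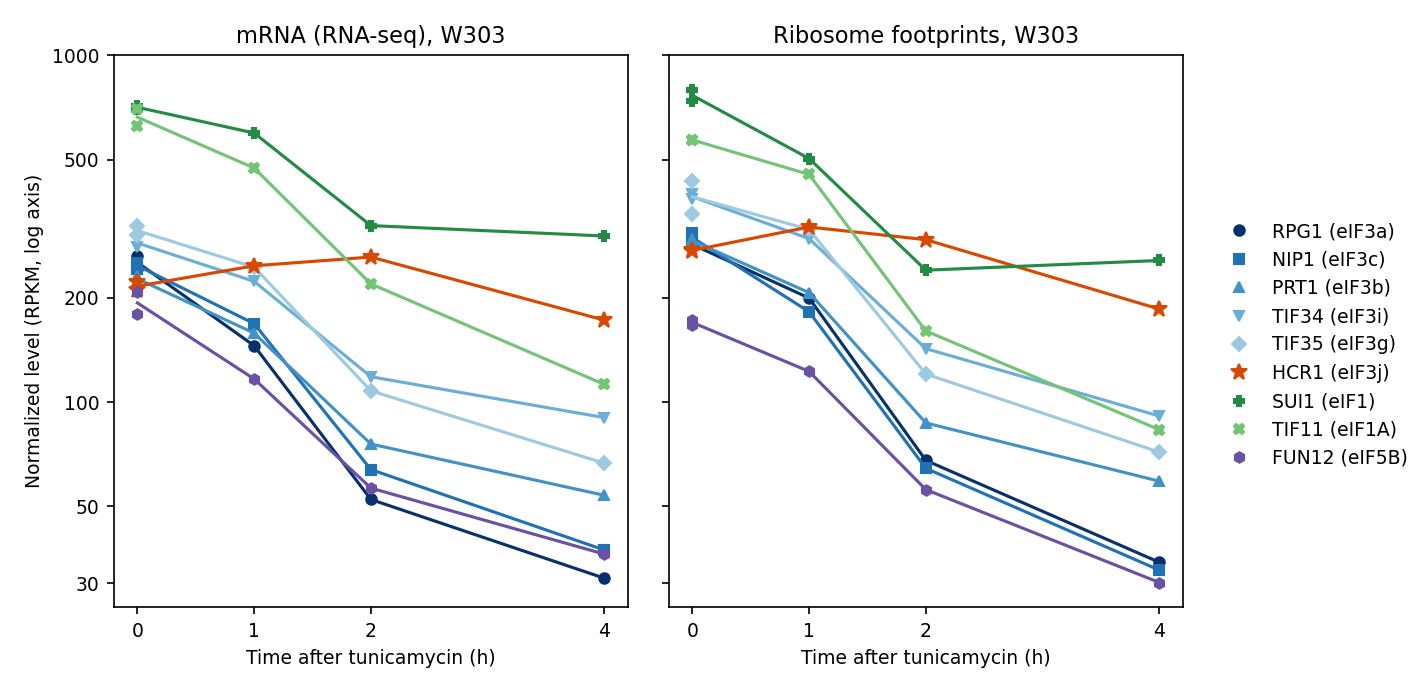
Normalized level (RPKM, log axis) of the 9 genes in W303 against time after Tm (h), mRNA on the left and footprints on the right. Points are single libraries and lines join the mean of each time. HCR1 (star) ends at 172 RPKM in mRNA while RPG1 ends at 31.0 RPKM.

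The size of the fall differed among the genes. RPG1 mRNA fell by 3.00 on the log2 scale at 4 h (95% interval −3.26 to −2.75, edgeR's adjusted p = 7.94e-12), to 0.125 times its untreated level. NIP1 fell by 2.70 (−2.95 to −2.45) and TIF11 by 2.54 (−2.78 to −2.30). FUN12, TIF35 and PRT1 came next with log2 mRNA changes of −2.39, −2.21 and −2.05. TIF34, a WD-repeat subunit, fell by 1.65 (−1.89 to −1.41). SUI1 fell least among the genes that were called, by 1.21 (−1.44 to −0.98), and its interval did not overlap that of 7 of the other 8 genes. SUI1 mRNA stood at 323 RPKM at 2 h and 301 RPKM at 4 h, against 700 and 715 RPKM at 0 h, so most of its decrease was present by 2 h. At 1 h the called genes were RPG1, NIP1, PRT1, TIF11 and FUN12, with RPG1 at −0.80 (SE 0.12). The standard error of these changes was between 0.11 and 0.13 for all 9 genes at all 3 times.

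HCR1, the loosely attached eIF3 subunit, did not follow the others. Its mRNA was at 210 and 222 RPKM before Tm, 247 RPKM after 1 h, 262 RPKM after 2 h and 172 RPKM after 4 h. Its log2 mRNA changes were 0.19, 0.29 and −0.31 after 1, 2 and 4 h (SE 0.11 each), with adjusted p-values of 0.153, 0.0239 and 0.0181 in edgeR's test, none below the threshold. HCR1 footprints were at 273 and 275 RPKM before Tm, 320 RPKM after 1 h, 294 RPKM after 2 h and 185 RPKM after 4 h. The 95% interval of the HCR1 mRNA change lay apart from those of all 8 other genes at 2 h and at 4 h. The direction of the HCR1 change at 4 h rests on the scaling. The footprint change was called at −0.57, but when libraries were scaled by total counts it was 0.38 (adjusted p = 0.00956) and the mRNA change was 0.41 (edgeR's adjusted p = 0.00319). At 2 h the same scaling gave HCR1 changes of 0.75 in mRNA (edgeR's adjusted p = 1.14e-07) and 0.62 in footprints (edgeR's adjusted p = 2.62e-05). That scaling moved the median log2 change of all genes in W303 at 4 h by 0.71 in mRNA and by 0.95 in footprints, and left all 8 other members lower.

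A ratio within a library does not depend on the scaling. The HCR1 mRNA level divided by the geometric mean of the 5 core subunits was 0.784 and 0.856 in untreated W303, then 1.34, 3.28 and 3.32 after 1, 2 and 4 h. In footprints the same ratio was 0.844 and 0.829, then 1.37, 3.20 and 3.47. The SUI1 ratio also climbed, with 2.62 and 2.76 at 0 h and 5.81 at 4 h in mRNA and 2.28 and 2.40 at 0 h and 4.79 at 4 h in footprints. TIF11 and FUN12 kept closer to the core, with FUN12 mRNA between 0.634 and 0.773 times the core in all 5 W303 libraries.

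**Figure D2:**
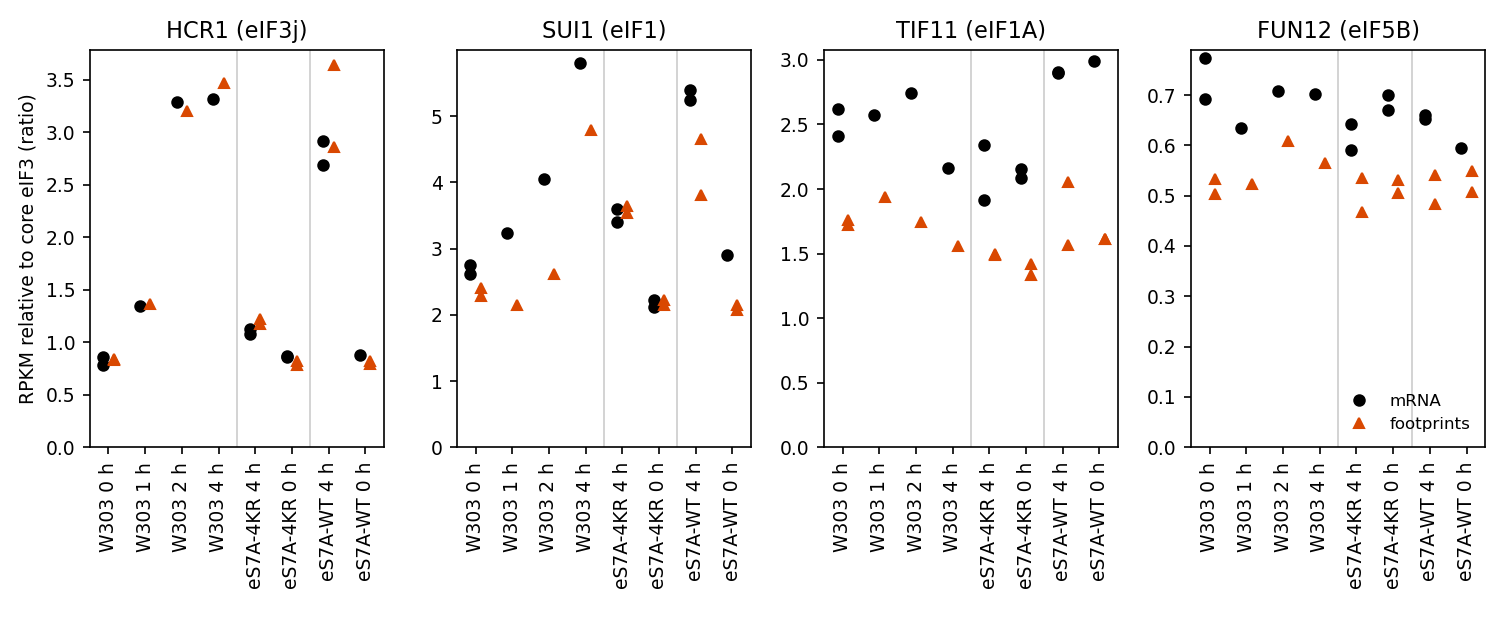
RPKM of HCR1, SUI1, TIF11 and FUN12 divided by the geometric mean RPKM of the 5 core eIF3 subunits in the same library (ratio, axes start at 0). Each point is 1 library, circles for mRNA and triangles for footprints, and grey lines part the strains. The HCR1 mRNA ratio is 1.13 and 1.07 in eS7A-4KR at 4 h and 2.69 and 2.92 in eS7A-WT at 4 h.

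Ribosome footprints on most of these mRNAs also fell in W303. RPG1 footprints were at 287 and 282 RPKM before Tm, 199 RPKM after 1 h, 67.9 RPKM after 2 h and 34.5 RPKM after 4 h. Footprints of 6 of the 9 genes fell by 1 h, of 8 by 2 h and of 9 by 4 h, against 16.5%, 30.7% and 32.6% of all genes tested. SUI1 footprints were at 504, 240 and 256 RPKM after 1, 2 and 4 h, so they did not fall further between 2 h and 4 h. The 1 h count dropped to 2 when either of the untreated footprint libraries was left out. Together the 9 genes took 0.344% and 0.345% of all footprints in the untreated W303 libraries, then 0.267%, 0.159% and 0.131% after 1, 2 and 4 h. These shares use no TMM factor, but comparing them between libraries amounts to scaling by total counts.

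No change in TE of any of the 9 genes passed the threshold in W303 at any time with edgeR or with DESeq2, against 0.0927%, 2.32% and 3.95% of all genes after 1, 2 and 4 h in edgeR's test. At an unadjusted p below 0.05 the counts of the 9 in edgeR's test were 1, 1 and 3. All 9 log2 TE changes at 4 h were below 0, between −0.49 for NIP1 and −0.05 for RPG1, with a median of −0.26 beside −0.06 for all genes tested. SUI1 had the lowest adjusted p, 0.0385 at 2 h in edgeR's test, for a log2 TE change of −0.61 (SE 0.16). The 95% intervals of the 9 TE changes at 4 h spanned −0.86 to 0.33, so changes of that size remain possible.

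The proportions among the core subunits shifted after Tm was added. In W303 mRNA, the highest of RPG1, NIP1 and PRT1 was 1.14 and 1.09 times the lowest before Tm, then 1.16, 1.44 and 1.73 times after 1, 2 and 4 h. In footprints the same ratio was 1.07 and 1.04, then 1.14, 1.35 and 1.80. PRT1 was the highest of the 3 at 4 h, with 59.1 RPKM of footprints where RPG1 had 34.5 RPKM and NIP1 had 32.8 RPKM. In footprints it was already the highest in the second untreated library, at 295 RPKM, and at 1 h, at 207 RPKM. The intervals of the footprint change of PRT1 (−2.31) and of RPG1 (−3.05) and NIP1 (−3.19) did not overlap. In eS7A-4KR at 4 h this ratio in footprints was 1.31 and 1.30, against 1.21 and 1.25 in eS7A-4KR at 0 h. In eS7A-WT it was 1.66 and 1.85 at 4 h, against 1.08 and 1.11 at 0 h.

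The comparison of eS7A-4KR with eS7A-WT asks how changes after Tm addition differ when the Not4 target lysines of eS7A are replaced by arginine. The paper does not exclude that the mutation alters ribosome structure as well as ubiquitination. More of the genes fell in eS7A-WT than in eS7A-4KR, and for 8 of the 9 the change differed between the strains. RPG1 mRNA was at 90.0 and 86.9 RPKM in eS7A-4KR at 4 h, against 156 and 151 RPKM at 0 h. In eS7A-WT it was at 34.0 and 34.6 RPKM at 4 h, against 196 RPKM in the single library at 0 h. Neither strain had overlapping values between times for this gene. The log2 change of RPG1 mRNA was −0.73 in eS7A-4KR (SE 0.18, edgeR's adjusted p = 0.00182) and −2.50 in eS7A-WT (SE 0.22, edgeR's adjusted p = 1.04e-10). The difference between these changes was 1.77 (95% interval 1.19 to 2.35, edgeR's adjusted p = 1.00e-05).

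**Figure D3:**
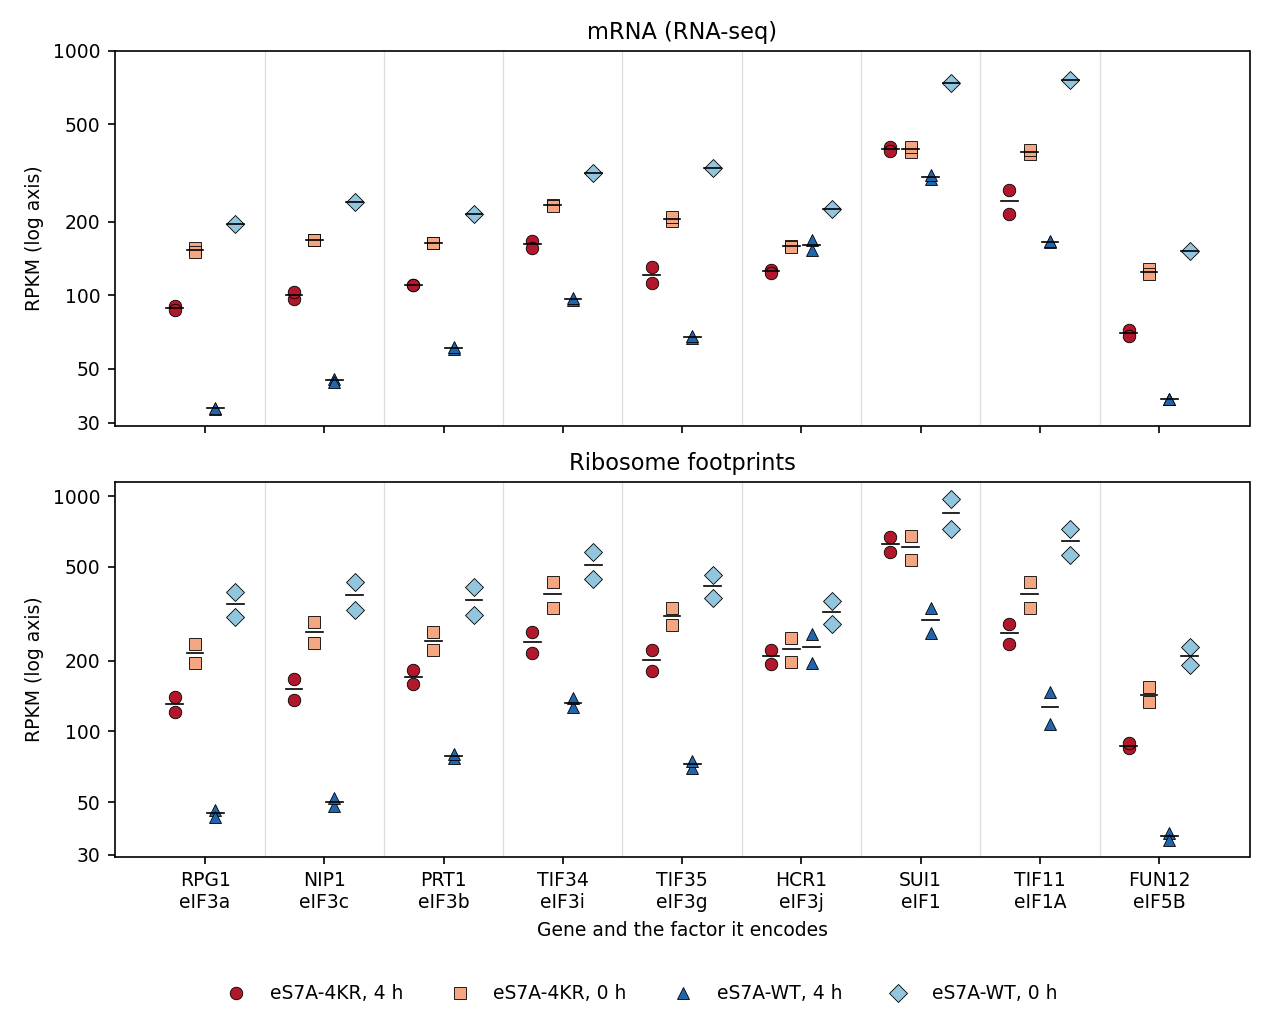
RPKM (log axis) of each gene in eS7A-4KR and eS7A-WT at 4 h and 0 h, mRNA above and footprints below. Points are single libraries and black bars are the means of 2 libraries (1 for eS7A-WT mRNA at 0 h). RPG1 mRNA in eS7A-4KR at 4 h (90.0 and 86.9 RPKM) lies above both eS7A-WT libraries at 4 h (34.0 and 34.6 RPKM).

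In eS7A-4KR, 5 of the 9 mRNAs fell at 4 h (RPG1, NIP1, TIF35, TIF11 and FUN12), and 13.5% of all 5558 genes tested fell. In eS7A-WT 8 fell, all but HCR1, and 29.1% of all genes fell. The median log2 mRNA change of the 9 genes was −0.62 in eS7A-4KR and −2.00 in eS7A-WT, beside 0.00 and 0.04 for all genes. The eS7A-4KR count is sensitive to single libraries, since it was 2 without the first and 1 without the second untreated RNA-seq library, and 1 without the first and 2 without the second library at 4 h. The difference between the strains' changes was called higher in eS7A-4KR for 8 of the 9 mRNAs, all but HCR1, and for 8 with each replicated library left out in turn. The single RNA-seq library of untreated eS7A-WT enters each of these values and could not be left out. Of all genes tested, 19.3% had a called difference in this direction. The 8 differences lay between 1.22 for FUN12 and 1.77 for RPG1.

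SUI1 mRNA, for eIF1, was at 404 and 391 RPKM in eS7A-4KR at 4 h, against 385 and 406 RPKM at 0 h, and the values at the 2 times overlapped. In eS7A-WT it was at 298 and 310 RPKM at 4 h, against 740 RPKM at 0 h. Its log2 change was 0.06 in eS7A-4KR (95% interval −0.26 to 0.39) and −1.27 in eS7A-WT (−1.66 to −0.88), a difference of 1.34 (SE 0.25, edgeR's adjusted p = 7.24e-05). SUI1 was the only 1 of the 9 whose mRNA estimate in eS7A-4KR was above 0. Its untreated level in eS7A-4KR was already lower than in eS7A-WT.

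TIF11 mRNA, for eIF1A, was at 215 and 268 RPKM in eS7A-4KR at 4 h, against 380 and 392 RPKM at 0 h. In eS7A-WT it was at 165 and 167 RPKM at 4 h, against 761 RPKM at 0 h. The log2 change was −0.62 in eS7A-4KR and −2.19 in eS7A-WT. FUN12 mRNA, for the subunit-joining GTPase eIF5B, was at 72.2 and 67.8 RPKM in eS7A-4KR at 4 h, against 128 and 122 RPKM at 0 h. In eS7A-WT it was at 37.5 RPKM in both libraries at 4 h, against 151 RPKM at 0 h. TIF11 and FUN12 thus showed no overlap between 4 h and 0 h in either strain.

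By the interval of its mRNA change, HCR1 stood apart in eS7A-WT and not in eS7A-4KR, where its ratio to the core subunits still rose. The 95% interval of its mRNA change was separate from those of 0 of the 8 other genes in eS7A-4KR, where that of SUI1 was separate from 5, and from those of all 8 in eS7A-WT. HCR1 mRNA was at 127 and 123 RPKM in eS7A-4KR at 4 h, against 159 and 157 RPKM at 0 h. In eS7A-WT it was at 153 and 167 RPKM at 4 h, against 225 RPKM at 0 h. At 4 h it was the only 1 of the 9 mRNAs with lower values in eS7A-4KR, a log2 difference from eS7A-WT of −0.40 (SE 0.16, edgeR's adjusted p = 0.031) that did not pass the threshold. With total counts this difference was −0.85 and passed it (edgeR's adjusted p = 9.47e-07). Its log2 change was −0.28 in eS7A-4KR and −0.48 in eS7A-WT, with neither called, and the difference of 0.19 had a 95% interval of −0.31 to 0.70. With total counts the HCR1 mRNA change in eS7A-WT was 0.15 and that in footprints 0.29, where the footprint change had been called at −0.53. That call also depends on 2 libraries: without the second eS7A-WT footprint library at 0 h the change was −0.34 (adjusted p = 0.0763), and without the first at 4 h it was −0.31 (adjusted p = 0.0997). Relative to the core subunits, HCR1 mRNA was 1.13 and 1.07 in eS7A-4KR at 4 h, against 0.874 and 0.863 at 0 h. In eS7A-WT the ratio was 2.69 and 2.92 at 4 h, against 0.883 at 0 h. In footprints it was 1.22 and 1.17 in eS7A-4KR at 4 h, against 0.787 and 0.823 at 0 h. In eS7A-WT footprints it was 2.85 and 3.64 at 4 h, against 0.821 and 0.796 at 0 h. The interval of the HCR1 footprint change in eS7A-4KR was separate from that of 1 of the 8 other genes.

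**Figure D4:**
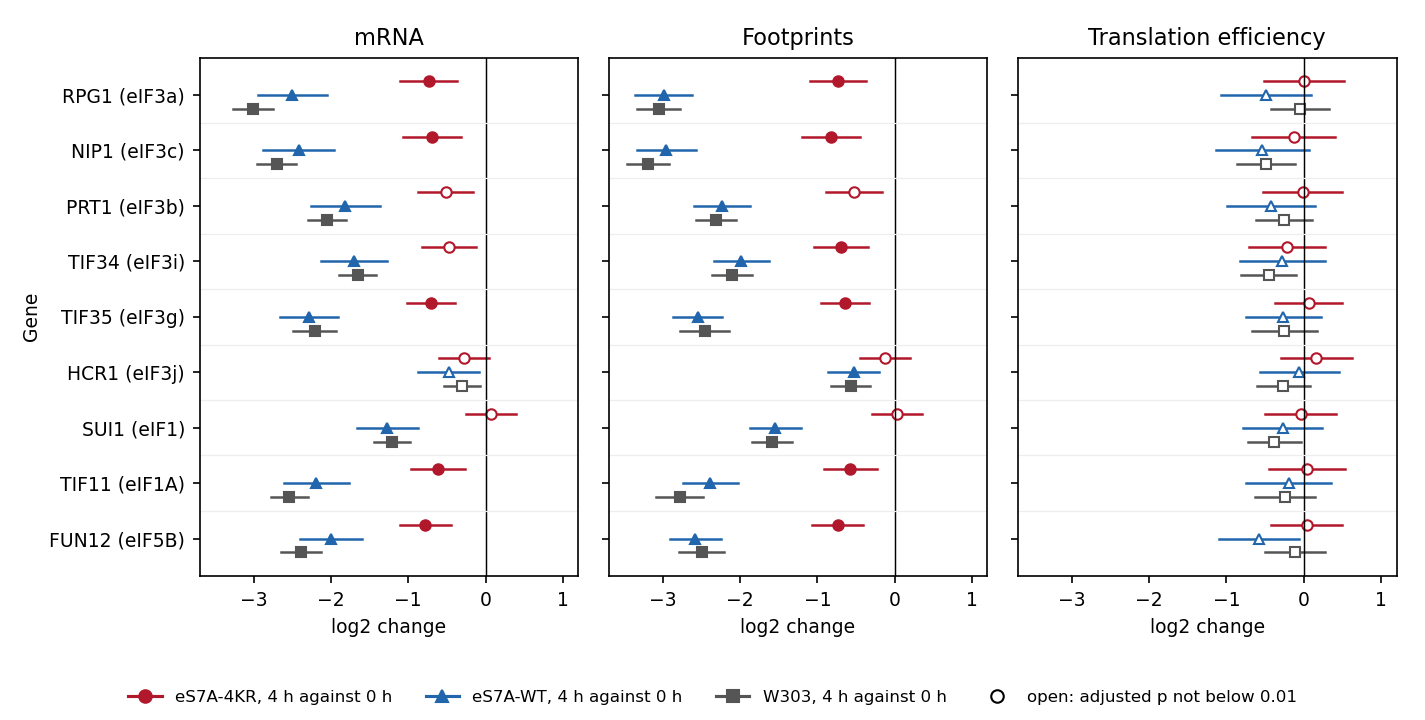
Log2 change at 4 h against 0 h with its 95% interval, for mRNA, footprints and TE, in eS7A-4KR (circles), eS7A-WT (triangles) and W303 (squares). Filled symbols passed an adjusted p below 0.01 in edgeR's test. In the TE panel every symbol is open, and the SUI1 change is −0.04 in eS7A-4KR, −0.27 in eS7A-WT and −0.38 in W303.

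Footprints gave the same order of strains. In eS7A-4KR at 4 h, footprints on 6 of the 9 genes fell, against 19.8% of all genes, and in eS7A-WT on 9, against 34.9% of all genes. RPG1 footprints were at 121 and 141 RPKM in eS7A-4KR at 4 h, against 195 and 235 RPKM at 0 h. In eS7A-WT they were at 46.2 and 43.5 RPKM at 4 h, against 305 and 390 RPKM at 0 h. The eS7A-4KR count was 1 without the second footprint library at 0 h and 1 without the first at 4 h. Same-numbered footprint libraries of these strains deviated together, and with a replicate block within each assay the eS7A-4KR count was 7, with PRT1 added. The difference between the strains' changes was called for 8 of the 9 genes, all but HCR1, against 22.9% of all genes, and lay between 1.29 for TIF34 and 2.25 for RPG1. With the replicate block within each assay it was called for all 9. The 9 genes took 0.247% and 0.240% of all footprints in eS7A-4KR at 4 h, against 0.337% and 0.329% at 0 h. In eS7A-WT they took 0.135% and 0.117% at 4 h, against 0.347% and 0.339% at 0 h.

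The strains already differed without Tm. At 0 h, 4 of the 9 mRNAs (TIF11, SUI1, TIF35 and HCR1) were lower in eS7A-4KR, with eS7A-WT as the comparison, against 21.3% of all genes, and all 9 estimates were below 0. TIF11 had the largest log2 difference, −1.07 (SE 0.20, edgeR's adjusted p = 9.06e-05), and SUI1 followed at −0.99 (SE 0.19). HCR1 was just past the threshold, at −0.59 with an adjusted p of 0.00983, and was not called when any 1 of the 6 RNA-seq libraries that have a replicate was left out (adjusted p 0.0126 to 0.0453). Footprints on 8 of the 9 genes were lower in eS7A-4KR, all but TIF34, against 26.5% of all genes. With the replicate block it was all 9. This footprint count was 1 without the second eS7A-WT library and 1 without the first eS7A-4KR library, and 0 with total counts, where TIF35 was at 0.09 and SUI1 at 0.04. As a share of the library, the 9 genes took 0.337% and 0.329% of footprints in eS7A-4KR and 0.347% and 0.339% in eS7A-WT, and 0.182% and 0.186% of RNA-seq reads in eS7A-4KR and 0.272% in eS7A-WT.

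At 4 h of Tm the order of the strains was the other way round. The mRNAs of all 5 core subunits and of FUN12 were higher in eS7A-4KR than in eS7A-WT, 6 of the 9 against 27.1% of all genes tested. The log2 difference was 1.32 for RPG1 (SE 0.18, edgeR's adjusted p = 9.90e-07), 1.12 for NIP1, 0.86 for FUN12, 0.81 for PRT1, 0.80 for TIF35 and 0.70 for TIF34. The TIF34 call did not survive leaving out either eS7A-WT library at 4 h (adjusted p = 0.0165 and 0.0133) or the first eS7A-4KR library at 4 h (adjusted p = 0.0154), and with total counts 4 of the 9 were called higher, without TIF34 and TIF35. TIF11, at 0.51 with an adjusted p of 0.0119 in edgeR's test, was not among the 6 but was called higher in 16 of 24 alternatives, whose adjusted p ranged between 5.75e-07 and 0.702. Footprints were higher in eS7A-4KR on 8 of the 9 genes, all but HCR1, against 28.7% of all genes. NIP1 footprints were at 136 and 167 RPKM in eS7A-4KR and 48.4 and 52.1 RPKM in eS7A-WT, a log2 difference of 1.54 (SE 0.19). HCR1 footprints were at 194 and 223 RPKM in eS7A-4KR and 196 and 261 RPKM in eS7A-WT, and these values overlapped.

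TE of the 9 genes did not pass the threshold in any comparison of the eS7A strains with edgeR or with DESeq2. The share of all genes called in edgeR's test was 0.9% for eS7A-4KR at 4 h, 4.41% for eS7A-WT at 4 h, 2.41% for eS7A-4KR against eS7A-WT at 0 h, 4.62% for the same at 4 h and 0.63% for the difference between changes. At an unadjusted p below 0.05 the counts of the 9 were 0, 1, 0, 2 and 0. The median log2 TE change at 4 h was 0.00 in eS7A-4KR and −0.28 in eS7A-WT, where all 9 estimates were below 0. At 4 h all 9 TE estimates were higher in eS7A-4KR than in eS7A-WT, with a median log2 difference of 0.36 beside 0.03 for all genes. SUI1 had the largest, 0.68 (SE 0.22, edgeR's adjusted p = 0.0544), and TIF35 was next at 0.61 (SE 0.21, edgeR's adjusted p = 0.0703). At 4 h the ratio of footprint to mRNA RPKM for SUI1 was 1.57 in eS7A-4KR (1.43 to 1.72 over combinations of single libraries). In eS7A-WT it was 0.980 (0.845 to 1.12), and these ranges did not overlap. The SUI1 ranges were already apart at 0 h, with ratios of 1.53 in eS7A-4KR and 1.14 in eS7A-WT. At 4 h the ranges of NIP1, PRT1, TIF35 and FUN12 were also apart between the strains, while those of RPG1, TIF34, HCR1 and TIF11 overlapped. This TE comparison moved with the processing, as 7 of the 9 genes were called higher with total counts and 4 with a replicate block within each assay. With total counts the median log2 TE difference of all genes also moved, from 0.03 to 0.38, and that of the 9 genes from 0.36 to 0.70.

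The other listed initiation factors, 21 genes for eIF2, eIF2B, eIF4 factors, eIF5 and related proteins, also fell. In W303 at 4 h, 20 of the 21 mRNAs fell, against 36% of all genes tested. The median log2 change was −1.51, where the 9 genes had −2.21. The largest falls were those of TIF4631 (YGR162W), for the scaffold protein eIF4G1, at −2.75 (SE 0.12), and of TIF5 (YPR041W), for the eIF2 GTPase activator eIF5, at −2.45 (SE 0.11). In eS7A-4KR at 4 h, 6 of the 21 fell, against 13.5% of all genes. They were led by TIF4631 at −0.82 and GCN3 (YKR026C), for eIF2B alpha, at −0.57. In eS7A-WT 20 of the 21 fell, against 29.1% of all genes, led by TIF4631 at −2.48 and TIF1 (YKR059W), for eIF4A, at −2.12. TIF1 and TIF2 encode the same protein, so reads may be shared between them and the TIF1 value is uncertain. Between the strains at 4 h, 8 of the 21 mRNAs were higher in eS7A-4KR, against 27.1% of all genes tested. They were led by EAP1 (YKL204W), for an eIF4E-binding protein, at 1.00 and GCN3 at 0.99. None of the 21 had a called change in TE in any of these 4 comparisons. Of all genes tested, 3.95% were called in W303, 0.9% in eS7A-4KR, 4.41% in eS7A-WT and 4.62% between the strains. The 137 cytosolic ribosomal protein genes had a median log2 mRNA change of −4.42 in W303 at 4 h.

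The mRNA profiles of the core subunits were alike across libraries. Pairs of the 5 core subunits had Pearson r between 0.979 and 0.999 over the 12 RNA-seq libraries and between 0.968 and 0.997 over the 13 footprint libraries, which share their strains, times and depth. With the mean profile of the core, r was 0.993 for FUN12, 0.972 for TIF11, 0.904 for SUI1 and 0.337 for HCR1 in RNA-seq. In footprints HCR1 had r = 0.544. Outside the 9 genes, the most alike in RNA-seq were MES1, for methionyl-tRNA synthetase (r = 0.996), TIF5, RPL16A, RPS22B and RPL24B. In footprints they were MES1 (r = 0.996), ARO4, SUI3, GCD1 and RPS18A. Such likeness was common, as 729 genes in RNA-seq and 670 genes in footprints had r above 0.9.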

How the data were processed

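The files the authors deposited hold, for each of 25 libraries, raw counts of A-site positions of footprints or RNA-seq reads on 6696 ORFs, and, as another column (unit other), the number of codons counted. Per the study's methods, the authors mapped reads to the yeast transcriptome, removed duplicates by random barcodes, and for profiling kept a range of footprint lengths that differed between the eS7A strains and between times in eS7A-WT. The submitters' processing notes name CASAVA 1.8, Bowtie2 2.0.6, TopHat2 2.0.7 and genome build sacCer3. The role of each tool and the length range for W303 are not given in the sources used here. Names came from the RefSeq table of assembly R64, which matched 6008 ORFs. No sequences were printed, since none were in the files used here.

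The deposited counts entered edgeR 4.0.16 under R 4.3.3 (glmQLFit, glmQLFTest, Benjamini-Hochberg adjustment, threshold 0.01). Strain, time and assay formed 1 group each, the 10 W303 and the 15 eS7A libraries were fitted apart, TMM was computed within each assay, and a gene was tested when its mean over libraries reached 10 counts in both assays. The TE change is the footprint change minus the mRNA change. The fits had 2 residual degrees of freedom in W303 and 7 in the eS7A strains. RPKM used TMM over all libraries of an assay and the counted codons, whose number was 10 higher per ORF in footprint than in RNA-seq files. Intervals are at 95%. Totals, the lowest being 3423907, limit precision.

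Counts were simulated with log2 changes of 1 or 2. The procedure recovered 69% and 87% of TE changes with the W303 design at 4 h (5392 genes). It recovered 78% and 98% with the eS7A-4KR design (5558 genes). These shares are over the 100 genes changed at each size. No log2 change smaller than 1 was simulated, so the shares do not give the power for smaller TE changes.

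Replicate numbers came from the labels. Deviations of same-numbered eS7A footprint libraries from their group means correlated at 0.500 to 0.667 between all pairs of groups. Those of RNA-seq libraries correlated at −0.359 to 0.0363. The main tests had no term for replicate number and so left the pairing of footprint libraries out. It entered only the replicate blocks among the alternatives, which also used the RNA-seq numbers. Correlations of profiles used log2 CPM with a pseudocount of 1. The 9 genes, the lists (21 other initiation factors, 8 targets of the unfolded protein response, 137 ribosomal protein genes) and the rule for named genes were chosen with earlier results of these data known. All 9 genes are named, of the other factors at most the 2 largest called rises and falls in mRNA or TE for each 4 h comparison, and the 5 genes most alike in profile.

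The alternatives were TMM over both assays, total counts, DESeq2 1.42.0, no filter, the newer quasi-likelihood method, a threshold of 0.05, replicate blocks, all 25 libraries in one fit and each replicate left out. A crossed numbering was added after seeing the data. Plots used matplotlib 3.10.9 under Python 3.11.15.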

Additional observations from a re-analysis of the deposited data

Results flagged for a closer look

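The change after Tm addition differed between the strains for 8 of the 9 genes, by the test of the difference itself. This was the quasi-likelihood test of edgeR, adjusted over all 5558 genes. In mRNA, the log2 change in eS7A-4KR minus that in eS7A-WT was 1.77 for RPG1, 1.73 for NIP1, 1.30 for PRT1, 1.23 for TIF34 and 1.58 for TIF35. It was 1.34 for SUI1, 1.57 for TIF11 and 1.22 for FUN12. In footprints, the same difference was 2.25 for RPG1, 2.13 for NIP1, 1.71 for PRT1, 1.29 for TIF34 and 1.91 for TIF35. It was 1.57 for SUI1, 1.81 for TIF11 and 1.84 for FUN12. The single RNA-seq library of untreated eS7A-WT enters every mRNA value here, and the untreated level was lower in eS7A-4KR for all 9 genes with TMM scaling. In the same contrast the 137 ribosomal protein genes had a median log2 mRNA difference of 2.87, beside −0.04 for all genes tested. Of the 21 other initiation factors, 17 had a called higher difference in mRNA and 19 in footprints. Their medians were 1.22 and 1.51, beside 1.34 and 1.81 for the 9 genes. Of all genes tested, 19.3% and 22.9% had such a difference.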

How the results depend on the processing

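The counts of called genes given here are out of 9, and the shares of all genes called under these settings are not given. They therefore do not show whether the 9 genes moved more than other genes. For mRNA in W303 at 1 h (5 called) they were 3 with no filter and 2 with all 25 libraries in one fit, and for footprints at 1 h (6 called) 3 with total counts, 3 with no filter and 1 with all 25 libraries in one fit. A threshold of 0.05 gave 1 TE call in W303 at 2 h. With total counts, 8 mRNAs, 0 footprints and 6 TE values were called between the strains at 0 h, and 7 TE values at 4 h. The median log2 TE difference of all genes was then 0.62 at 0 h and 0.38 at 4 h, beside 0.05 and 0.03 with TMM. A replicate block within each assay gave 2 TE calls in eS7A-WT at 4 h (NIP1 and FUN12), 8 mRNA calls in eS7A-4KR at 4 h, 9 mRNA calls and 1 TE call between the strains at 0 h, and 4 TE calls at 4 h, where the replicate block over all libraries gave 2. RNA-seq libraries share only a number. In W303, no paired analysis within each assay was possible because no residual degrees of freedom were left, and the block over all libraries changed no count there by over 1.5 times. Numbers of the eS7A-4KR RNA-seq libraries at 4 h crossed in the block gave 3 TE calls in eS7A-WT at 4 h, 8 mRNA calls in eS7A-4KR at 4 h, 9 mRNA and 1 TE calls between the strains at 0 h and 4 TE calls at 4 h. Leaving out 1 replicate gave 2 to 7 calls for footprints in W303 at 1 h, 1 to 7 for mRNA and 1 to 7 for footprints in eS7A-4KR at 4 h, and 1 to 9 for footprints between the strains at 0 h. The cause of these shifts was not tested.

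Among values called with either setting, directions turned only with total counts. Signs of uncalled changes turned more often, mostly in TE: that of HCR1 between the strains at 0 h was kept in 12 of 24 alternatives, and that of PRT1 in eS7A-4KR at 4 h in 14 of 24. HCR1 in W303 at 4 h was then at 0.41 in mRNA and 0.38 in footprints, and in eS7A-WT at 4 h at 0.29 in footprints. Between the strains at 0 h, TIF35 was at 0.087 and SUI1 at 0.037 in footprints, and HCR1 at 0.57 in TE. This scaling also moved the share of all calls that were higher. In W303 it was 71.5% at 2 h and 77.4% at 4 h in mRNA (51.4% and 51.1% with TMM), and 60.2%, 73.6% and 79.4% at the 3 times in footprints (41.6%, 49.3% and 49.5%). In mRNA it was 72.5% in eS7A-4KR and 74.6% in eS7A-WT at 4 h (56.2% and 51.3%), and in footprints 65.6% and 76.4% (47.7% and 49.8%). Between the strains it was 85.1% in footprints at 0 h (49.9%) and 25.2% in mRNA at 4 h (54.5%), and for the difference of changes 38.4% in mRNA and 25.9% in footprints (55.3% and 52.2%). For TE it was 53.2%, 80.5% and 83.1% in W303 (40%, 68.8% and 65.3%), 80.6% in eS7A-4KR (42%), 90.9% and 96.8% between the strains at 0 h and 4 h (45.5% and 42.4%) and 76.3% for the difference of changes (48.6%). Over all alternatives, 96 values of single genes lost their call, 142 gained one and 3968 kept their side of the threshold. The footprint library with the fewest counts, W303 at 4 h, limits the precision of TE there.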
